A study of Mus musculus with 6 samples.

Results

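A group of 10 genes of poly(ADP-ribose) signalling and base excision repair was followed in long-term hematopoietic stem cells (LT-HSCs) of wild-type and Foxm1 heterozygous mice. They are Parp1, Parp2, Parp3, Parg, Ogg1, Ung, Apex1, Polb, Xrcc1 and Lig3. The genes were taken by name from the deposited normalized table, where 9 of them are among its 12179 genes. Apex1 has no row there and was found by its gene identifier in the count table of 27179 genes, so all 10 are accounted for. A row in the normalized table itself depends on measured levels, and Parp1 was included with its difference between the genotypes already known. The Parp1 difference is therefore given as a description and not as a test.

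RNA-Seq was made from 3 libraries of WT mice and 3 libraries of Foxm1 HET mice, all C57BL/6 and 8 weeks old. LT-HSCs were sorted from bone marrow (BM) as CD150+CD48-LSK cells, where LSK stands for lineage-negative cells with Sca-1 and c-Kit. The labels name no treatment, and neither they nor the methods say that animals were pooled. The Foxm1 HET samples carry the genotype label heterozygous, while their titles name a floxed allele and no Cre, which in the study's other assays is the genotype of control mice. The study used Tie2-Cre, which acts in endothelial and blood cells, and Mx1-Cre, which is induced by poly(I:C). For other assays the study calls mice with Tie2-Cre and 1 floxed allele Foxm1 HET, and mice with that allele but no Cre WT. For the sequenced animals the driver and the alleles of the WT mice are not stated. Foxm1, the targeted transcription factor, ranged from 1182 to 2942 reads over the WT libraries and from 5 to 742 over those labelled Foxm1 HET. The 5 reads were in Foxm1 HET replicate 2, the library with the fewest genes detected. The ranges did not overlap before or after scaling for library size, and after scaling 8.68% of all genes tested did not overlap. The fitted log2 fold change of Foxm1 was -3.30 (standard error 2.33), with an adjusted p of 0.961 (edgeR). Whether the allele was deleted in the sequenced animals was not tested here.

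Base excision repair removes single damaged or misplaced bases from DNA. A glycosylase such as Ogg1, which recognises oxidised guanine, or Ung, which recognises uracil, cuts out the base. The endonuclease Apex1 then opens the strand at the empty site, the polymerase Polb fills the gap, and the ligase Lig3, held by the scaffold Xrcc1, seals it. Parp1 and Parp2 bind the strand break and build chains of ADP-ribose that draw Xrcc1 to it, and Parg takes these chains down again. Parp3 is a related enzyme that adds single ADP-ribose units at breaks. HSCs live long and divide rarely, and unrepaired lesions in them can be passed on to all blood lineages.

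The promoter of Parp1 is shown because this gene was included in the group for its known difference between the genotypes. The window covers chr1:180568641-180568920 of GRCm38.p6 on the plus strand, from 250 bases before the RefSeq gene start to 30 bases after it. That start lies upstream of the 180568975 at which the count table begins Parp1, and the positions of motifs are counted from the RefSeq start. Capitals mark GC boxes, the letters GGGCGG or their reverse complement CCGCCC.

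Parp1 promoter: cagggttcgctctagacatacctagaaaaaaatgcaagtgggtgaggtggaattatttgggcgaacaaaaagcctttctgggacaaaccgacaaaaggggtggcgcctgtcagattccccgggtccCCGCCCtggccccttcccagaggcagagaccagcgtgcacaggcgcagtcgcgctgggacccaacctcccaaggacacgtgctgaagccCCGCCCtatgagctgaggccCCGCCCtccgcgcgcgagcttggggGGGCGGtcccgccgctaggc

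The Parp1 window held 4 GC boxes, whose first bases lay at -124, -35, -15 and 10 from the gene start. Of all 32851 promoter windows of 300 bases in the RefSeq table, 35.7% held at least 1 GC box and 5.49% held 4 or more. The forkhead core TGTTTA (or TAAACA) was in none of the 10 windows of the 9 genes of the group with an entry, and 13.4% of all windows held it. The cell cycle element TTTGAA (or TTCAAA), present in 17.9% of all windows, was likewise in none of the 10. The CCAAT box (CCAAT or ATTGG) occurs in 37.4% of all windows, and it occurred in those of Ogg1, Xrcc1, Parp3 and Apex1. Both strands were searched, and none of these motifs overlapped another in the Parp1 window. These matches describe letters in a short window only. The study placed its putative Foxm1 site of the Parp1 promoter farther upstream than this window, and tested it with a reporter assay and a binding assay. Sequence farther upstream of the Parp1 gene start was not analysed here, so the motif counts say nothing about that site. Polb had no entry.

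The study also measured Parp1 by RT-PCR in HSCs, and reported significantly lower expression in Foxm1 HET mice than in WT mice. The primers are shown to place that assay on the gene whose reads are counted here.

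Parp1 forward primer: GGCAGCCTGATGTTGAGGT
Parp1 reverse primer: GCGTACTCCGCTAAAAAGTCAC

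In the GENCODE transcripts of GRCm38 the forward primer matched chr1:180573725-180573743 in exon 2 of Parp1-201, and the reverse primer matched the other strand at chr1:180577628-180577649 in exon 3. Both sites lie in coding sequence. Read counts cover all 23 exon blocks of Parp1, so the assay and the counts read different stretches of the same gene.

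Libraries held between 14573002 and 25798509 counted reads, and between 4467 and 9894 genes had at least 10 reads. Scaling by TMM, a method that sets libraries level by their common genes, gave factors between 0.453 and 1.67, with the smallest in Foxm1 HET replicate 2. All 12 LT-HSC marker genes reached 10 reads in at least 1 library. Kit had at least 10720 reads in each, but other sort markers were uneven. Ly6a, which encodes the sort marker Sca-1, was read 125, 4 and 2 times across WT replicates and 2261, 2 and 1597 times across Foxm1 HET replicates. Slamf1, which encodes the sort marker CD150, was read 2, 1572 and 0 times across WT replicates and 8, 0 and 543 times across Foxm1 HET replicates. Both Ly6a and Slamf1 were thus at or near 0 in several libraries. Cd48, the gene of the negative sort marker, ranged from 0.0625 to 292 CPM (reads scaled to a common library size) in WT and from 0.526 to 33.7 in Foxm1 HET. All 8 neutrophil markers reached 10 reads, and together they ran from 5359 to 21200 CPM in WT and from 840 to 18320 in Foxm1 HET. This list joins the primary granule genes Elane and Mpo with S100a8, S100a9, Ngp, Ltf, Camp and Lcn2. The share of each gene in the sum is not given here. The 6 macrophage markers summed to at most 163 CPM, with C1qa and C1qb at 0 in every library. The 6 B cell markers summed to 12.8 to 269 CPM in WT and 0 to 4.46 in Foxm1 HET, with Cd79a, Ebf1 and Ms4a1 at 0. The 7 T cell markers reached at most 81.4 CPM with Cd3d, Cd3g and Trbc2 at 0, the 5 megakaryocyte markers at most 10.5 and the 7 erythroid markers found at most 1517, with Hba-a1 at 0. The part of such cells in the results was not tested.

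Levels within the group differed widely. Per kilobase of exon, Parp1 had the highest median over the 6 libraries, 51.4 CPM per kilobase, followed by Parg at 25.1, Parp2 at 12.6 and Lig3 at 10.3. Ung and Parp3 had medians of 4.35 and 4.23, and Polb had 1.45. Apex1, Xrcc1 and Ogg1 had medians of 0.11, 0.021 and 0 CPM per kilobase. For each pair of neighbours in this order the ranges over libraries overlapped.

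Parp1 and Parg were the 2 genes of the 10 with at least 10 reads in every library. Of all genes with at least 1 read in the series, 18.2% reached this in every library. Among the 7 genes of the group that passed the filter for testing the same 2 did, and 30.7% of all genes tested did. The most sparsely read genes were Ogg1 and Apex1, each with 10 or more reads in 1 library, and Xrcc1, with 2. Over the group, 15 of 30 gene and library pairs reached 10 reads in WT and 22 of 30 in Foxm1 HET. By library, WT replicates 1, 2 and 3 had 6, 4 and 5 genes detected, and the Foxm1 HET replicates had 9, 4 and 9. The libraries with 9 were those with the most genes of any kind detected, 9894 and 9426, and the 4467 genes of Foxm1 HET replicate 2 were the fewest. The part of detection depth in the genotype comparison was not tested.

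**Figure D1:**
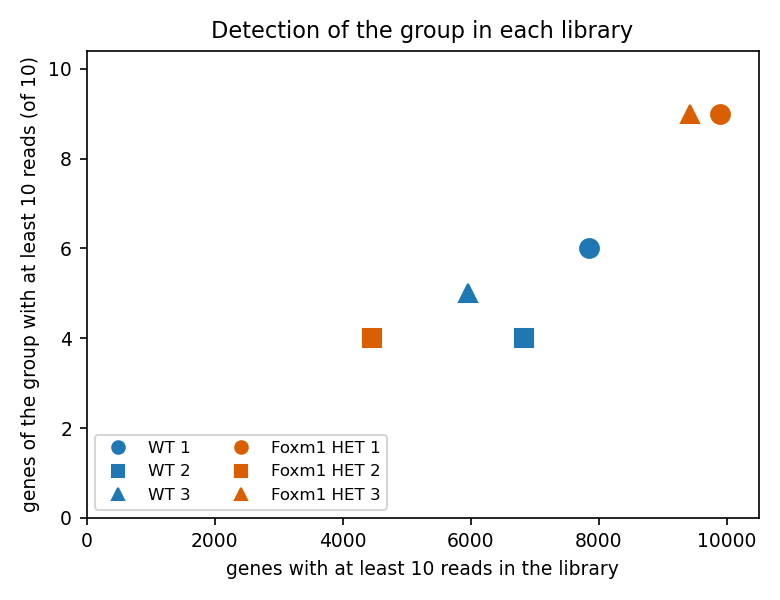
Number of the 10 Parp and base excision repair genes with at least 10 reads (vertical axis) against the number of all genes with at least 10 reads (horizontal axis), 1 point per library, with color for genotype and symbol for replicate. Foxm1 HET replicates 1 and 3 sit at 9 genes with 9894 and 9426 genes detected, and Foxm1 HET replicate 2 at 4.

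The comparison of genotypes asked whether repair genes are expressed differently when 1 Foxm1 allele is lost. Of the 10 genes, 7 had enough reads to be tested, and edgeR's quasi-likelihood test called 0 of these 7 at an adjusted p of 0.05, where it called 0.329% of the 8195 genes tested (0.0122% lower and 0.317% higher in Foxm1 HET). At an unadjusted p under 0.05 the count was 1, the preselected Parp1, against 6.03% of all genes. DESeq2 called 0 of the 7, where it called 2.37% of all genes, limma-voom called 0 of the 7 and 0.0488% of all genes, and limma on log values called 0 of all genes. Only Parp1 had libraries that did not overlap between genotypes, 1 of 7, where 8.68% of all genes tested did not overlap (4.55% with Foxm1 HET lower and 4.12% with Foxm1 HET higher). The fitted log2 fold change was negative for 3 of the 7 (Parp1, Parp3 and Lig3) and positive for 4 (Parp2, Parg, Ung and Polb), with a median of 0.42 beside -0.26 over all genes tested, of which 54.6% were negative. In bulk libraries of this kind, fewer cells that express a gene and less RNA per cell cannot be told apart.

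**Figure D2:**
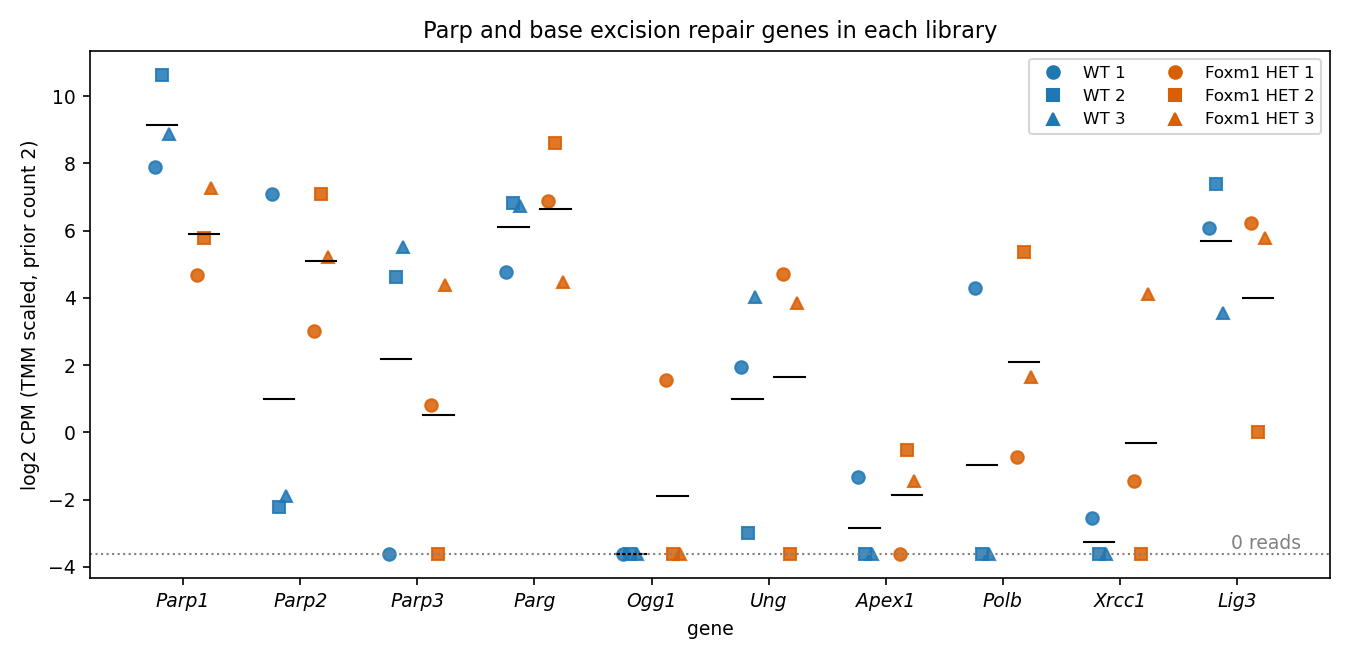
Log2 CPM (vertical axis, TMM scaled, prior count 2) of the 10 genes in each of the 6 libraries, with color for genotype and symbol for replicate. Black bars are group means and the dotted line marks 0 reads. Parp1 is the only gene whose WT points all lie above its Foxm1 HET points, and 8 of the genes have at least 1 library with under 10 reads.

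Parp1 (chromosome 1, 180568975 to 180601254 of GRCm38) is the main sensor of DNA strand breaks. WT replicates 1, 2 and 3 held 5306, 36012 and 7578 of its reads, and the 3 Foxm1 HET replicates held 976, 356 and 6410. The read counts themselves overlapped, since Foxm1 HET replicate 3 exceeded WT replicate 1. After scaling for library size and length, the WT libraries stood at 62.7, 416.5 and 123.8 CPM per kilobase and the Foxm1 HET libraries at 6.70, 14.4 and 40.0. WT replicate 2 stood highest, Foxm1 HET replicate 3 came close to WT replicate 1, and the genotypes did not overlap. On log2 CPM the WT mean was 9.14 ± 1.38 (SD, n = 3), against a Foxm1 HET mean of 5.91 ± 1.29 (SD, n = 3). The fitted log2 fold change was -3.30 (standard error 1.64), and Parp1 was not among the genes that passed the adjusted threshold.

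The size of the gap between the lowest WT and the highest Foxm1 HET library depended on the scale. It was 0.65 on log2 CPM with TMM, 0.76 with RLE, 0.36 with upper-quartile scaling and 0.08 with library size alone. In the deposited normalized table, which is on a log2 scale, the WT values were 7.33, 9.87 and 7.47 and the Foxm1 HET values 3.34, 5.26 and 7.18, which leaves a gap of 0.15. A measure that needs no scaling factor between libraries is the rank of Parp1 within a library. The set of genes with reads differs between libraries, so this rank still depends on detection. Among genes with reads, ordered by level per kilobase, Parp1 stood at percentile 93.2, 99.4 and 92.8 over the WT replicates and at 62.0, 69.2 and 92.8 over the Foxm1 HET replicates. By rank, then, Foxm1 HET replicate 3 equalled WT replicate 3 to 3 digits, and the other 2 Foxm1 HET libraries lay below all WT libraries.

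Parg (chromosome 14, 32201971 to 32297550), the enzyme that degrades ADP-ribose chains, was read in all libraries and so allows a ratio within each library. Parg was read 600, 2571 and 1698 times across WT replicates and 4461, 2544 and 927 times across Foxm1 HET replicates. Across WT replicates the ratio of Parp1 to Parg per kilobase was 10.2, 16.1 and 5.12, and across Foxm1 HET replicates it was 0.251, 0.161 and 7.93. Parp1 was above Parg in all 3 WT libraries and in Foxm1 HET replicate 3, and below it in Foxm1 HET replicates 1 and 2, so the genotypes overlapped. Parg had a WT mean of 6.11 ± 1.16 (SD, n = 3) log2 CPM and a Foxm1 HET mean of 6.66 ± 2.08 (SD, n = 3). Its log2 fold change was 1.11 with a 95% interval of -2.50 to 4.71 (adjusted p = 0.998, edgeR), so a difference in either direction of several fold was not detectable with this spread.

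**Figure D3:**
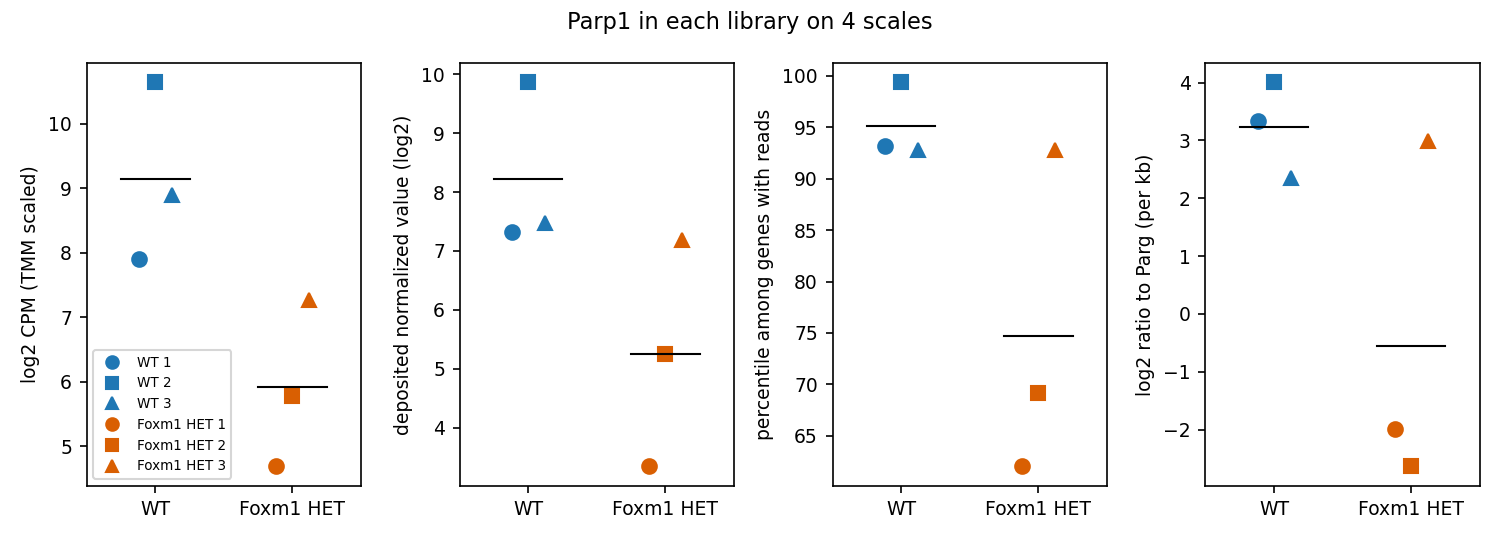
Parp1 in the 6 libraries on 4 scales, from left to right log2 CPM after TMM, the deposited normalized value on a log2 scale, the percentile among genes with reads in the same library, and the log2 ratio to Parg per kilobase. Black bars are group means, and Foxm1 HET replicate 3 (orange triangle) lies nearest to the WT libraries in the left pair of panels and among them in the right pair.

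Parp2 (chromosome 14, 50807946 to 50821300), the partner of Parp1 in break sensing, was read 3004, 3 and 3 times across WT replicates and 306, 886 and 1550 times across Foxm1 HET replicates. It was read well in 1 WT library and in all 3 Foxm1 HET libraries, and the highest values of the genotypes were nearly the same, 7.09 log2 CPM in WT and 7.10 in Foxm1 HET. The log2 CPM of Parp2 had a WT mean of 0.99 ± 5.28 (SD, n = 3) and a Foxm1 HET mean of 5.11 ± 2.04 (SD, n = 3). Its fitted log2 fold change was 0.42, with a 95% interval of -3.97 to 4.81 (adjusted p = 0.998, edgeR). This value comes from a model of the counts and is not the difference of the means of log2 CPM. The estimate rested on WT replicate 1 in particular, since without this library it was 8.50 (adjusted p = 0.600, edgeR).

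Parp3 (chromosome 9, 106470353 to 106476651) showed another pattern of presence. It was read 0, 549 and 731 times across WT replicates and 64, 0 and 861 times across Foxm1 HET replicates, so that 1 library of each genotype had none. WT replicate 1, which had the most Parp2 reads, had no Parp3 reads, and Foxm1 HET replicate 2 likewise had Parp2 and no Parp3. The log2 fold change of Parp3 was -1.65, with a 95% interval of -7.27 to 3.97 (adjusted p = 0.998, edgeR), and without Foxm1 HET replicate 3 it was -4.63.

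Of the glycosylases, Ung reached 10 reads in 4 libraries and Ogg1 in 1. Ung (chromosome 5, 114130435 to 114139321) was read 84, 1 and 261 times across WT replicates and 990, 0 and 605 times across Foxm1 HET replicates. The log2 CPM of Ung ran from -2.99 to 4.04 over WT libraries and from -3.62 to 4.70 over Foxm1 HET libraries, so the genotypes overlapped over most of their range (exact permutation test, two-sided, p = 0.8). Its log2 fold change was 1.01, with a 95% interval of -4.72 to 6.73. Ogg1 (chromosome 6, 113326976 to 113334188) had 108 reads in Foxm1 HET replicate 1 and 0 reads in each of the other 5 libraries, and it was too sparse to be tested. Of its exon bases, 4.21% also belong to Camk1 on the other strand. Of the 9 other glycosylase genes of the pathway, 3 had enough reads to be tested, and Nthl1 and Smug1 had 0 reads in every library.

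Apex1 (chromosome 14, 50924949 to 50927188), the main endonuclease for empty sites, was read 7, 0 and 0 times across WT replicates and 0, 4 and 12 times across Foxm1 HET replicates. Of the exon bases of Apex1, 70.9% also belong to Tmem55b on the other strand. Whether the counting used strand is not given in the sources used here, and reads that fall on both genes may have been left out or split. The low count therefore says little about the level of Apex1, and the gene was not tested.

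Polb (chromosome 8, 22628119 to 22653437), the polymerase that fills the gap, was read 430, 0 and 0 times across WT replicates and 20, 266 and 127 times across Foxm1 HET replicates. These are the same 4 libraries in which Parp2 reached 10 reads, and WT replicates 2 and 3 were at or near 0 for both genes. The log2 CPM of Polb had a WT mean of -0.98 ± 4.56 (SD, n = 3) and a Foxm1 HET mean of 2.09 ± 3.07 (SD, n = 3), and the genotypes overlapped (exact permutation test, two-sided, p = 0.3). Its fitted log2 fold change, again from the counts and not the difference of these means, was 1.20, with a 95% interval of -4.54 to 6.93. It was 11.39 without WT replicate 1 and -1.83 without Foxm1 HET replicate 2.

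Xrcc1 (chromosome 7, 24547150 to 24573438), the scaffold on which the repair proteins gather, was read 2, 0 and 0 times across WT replicates and 11, 0 and 722 times across Foxm1 HET replicates. Foxm1 HET replicate 3 alone held nearly all of its reads, and the gene did not pass the filter on low counts. Lig3 (chromosome 11, 82781135 to 82804274), the ligase that works with Xrcc1, had at least 10 reads in 5 of the 6 libraries. It was read 1504, 3812 and 186 times across WT replicates and 2878, 6 and 2278 times across Foxm1 HET replicates. Apart from Foxm1 HET replicate 2, at 0.01 log2 CPM, the libraries lay between 3.55 and 7.40 log2 CPM, and the genotypes overlapped (exact permutation test, two-sided, p = 0.6). The log2 fold change of Lig3 was -0.92, with a 95% interval of -5.16 to 3.31 (adjusted p = 0.998, edgeR). Of its exon bases 7.67% also belong to Rffl on the other strand. With both strands searched, 23.8% of the 50-base stretches of its annotated transcripts occur in Rffl transcripts. How far this sharing affects the counts of Lig3 was not tested.

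**Figure D4:**
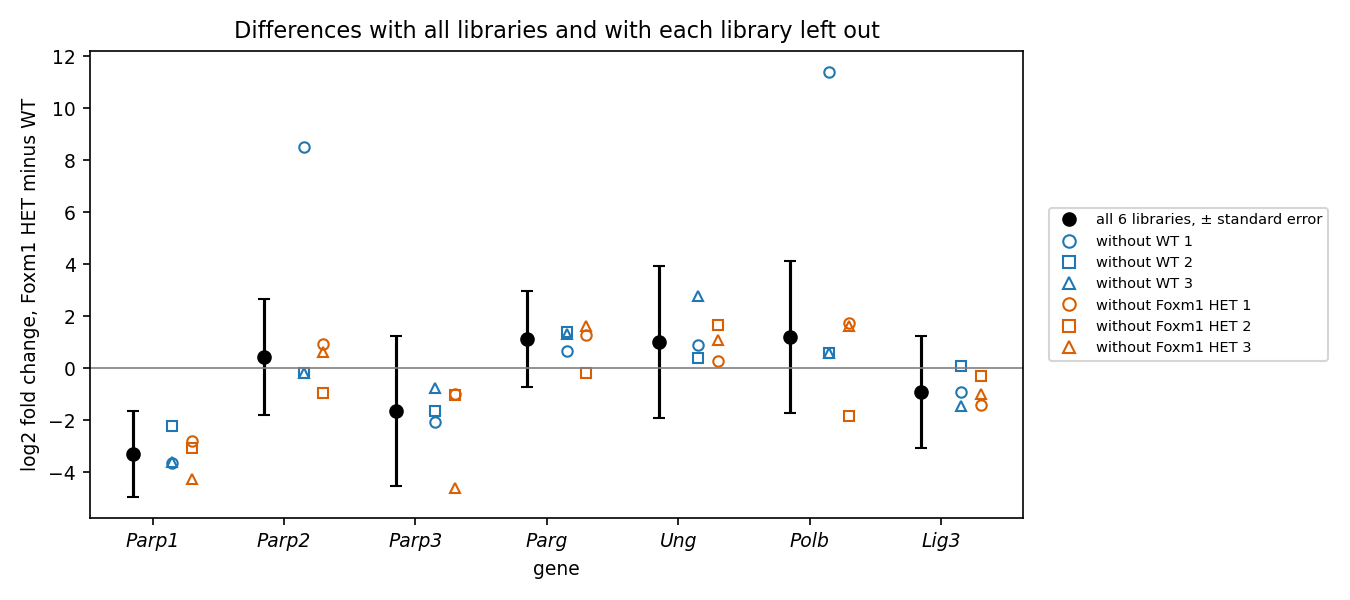
Log2 fold change, Foxm1 HET minus WT (vertical axis), of the 7 genes tested, with all 6 libraries (black, ± standard error) and with each library left out in turn (open symbols, color for genotype and symbol for replicate of the library left out). Parp1, which was included for its known difference, stays between -4.26 and -2.22 in all 6 fits. Its adjusted p in these fits runs from 0.6005 to 0.9985 (edgeR). Parp2 reaches 8.50 and Polb 11.39 without WT replicate 1.

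In the deposited normalized table the other genes of the group overlapped between genotypes as well. Parg stood at 3.52, 5.63 and 5.42 across WT replicates and at 6.41, 6.80 and 2.84 across Foxm1 HET replicates. Lig3 stood at 4.51, 5.76 and 2.98 and at 4.81, 2.24 and 4.09, again with Foxm1 HET replicate 2 lowest. The difference of means, Foxm1 HET minus WT, was 0.49 for Parg, -0.70 for Lig3, 1.54 for Parp2 and -1.55 for Parp3. For Parp3, WT replicate 1 (0.13) and Foxm1 HET replicate 2 (0.18) stood at the lowest value of their library.

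The spread within a genotype was wide for this group and for all genes. The median range between the highest and lowest library was 7.03 log2 units in WT and 6.08 in Foxm1 HET for the 7 genes, beside 5.67 and 5.34 for all genes tested. Parp1 and Parg had the narrowest ranges of the 7 in WT, 2.73 and 2.07, and were also the genes read well in every library. Parp2, Parp3, Ung and Polb had WT libraries with few or no reads, so their ranges also reflect detection. In Foxm1 HET the narrowest were Parp1 and Parp2, at 2.58 and 4.08. The biological coefficient of variation was 1.28 for Parp1, the lowest of the 7, and 1.66 as the common value over all genes.

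The genes most like Parp1 were looked for over the 6 libraries among the other 8194 genes tested. Csnk1e, a casein kinase, had the highest Pearson correlation of log2 CPM with Parp1 (r = 0.990), followed by the small GTPase gene Arl4a (r = 0.981) and the ribonucleoprotein gene Hnrnpul1 (r = 0.971). Csnk1e was read 584, 2882 and 1076 times across WT replicates and 99, 52 and 722 times across Foxm1 HET replicates, the same order of libraries as Parp1 on log2 CPM. In all, 34 genes had r above 0.9, and how many would do so by chance over 6 libraries was not tested. Within the group, the correlation with Parp1 was 0.52 for Parp3, 0.38 for Lig3, -0.21 for Parg, -0.28 for Ung, -0.54 for Polb and -0.64 for Parp2. All of these points share the same libraries and scaling, and the values are descriptions.

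A wider list of 53 genes of the same pathway covered further ADP-ribose enzymes, glycosylases, end-processing enzymes, replicative polymerases and clamp loaders, and nucleotide pool enzymes. Of these, 38 were tested and edgeR called 0 at an adjusted p of 0.05. It gave 0 an unadjusted p under 0.05, and DESeq2 and limma-voom also called 0. Over all genes tested these shares were 0.329%, 6.03%, 2.37% and 0.0488%, and limma on log values called no gene of any kind. By fitted log2 fold change, 27 were negative and 11 positive, where 54.6% of all genes tested were negative, and the median was -1.44 beside -0.26 over all genes tested. The gap-filling and ligation genes accounted for 13 of the 27, out of 15 tested, with a median of -1.77. Among ADP-ribose genes 7 of 14 were negative. Of the 3 glycosylases tested all 3 were negative, of the 5 end-processing genes 3 were, and the 1 nucleotide pool gene tested, Dut, was at -0.07. These lists share the 6 libraries, and the part of detection depth in the signs was not tested.

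The 4 genes with the smallest unadjusted p were Rfc3, Tiparp, Parp14 and Zc3hav1. Rfc3, a subunit of the clamp loader, was read 19, 9538 and 11 times across WT replicates and 867, 10 and 71 times across Foxm1 HET replicates, so WT replicate 2 held nearly all of its WT reads. The fold change of Rfc3 was -4.02 on the log2 scale, with a standard error of 2.33. Tiparp, a mono-ADP-ribosyltransferase induced by the aryl hydrocarbon receptor, was read 4846, 872 and 931 times across WT replicates and 247, 4 and 469 times across Foxm1 HET replicates. The genotypes did not overlap for Tiparp, which lay lower in Foxm1 HET, by a fitted log2 value of -4.10 with a standard error of 2.51 (edgeR, adjusted p = 0.938). Parp14 and Zc3hav1, members of the Parp family linked to interferon and antiviral responses, had log2 fold changes of -2.98 (standard error 1.98) and -2.96 (standard error 2.05), and their libraries overlapped. Foxm1 HET replicate 2, the library with the fewest genes detected, had 4 reads of Tiparp and 7 each of Parp14 and Zc3hav1.

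Genotypes did not overlap for 3 of the 38 genes, or 7.89%, where 8.68% of all genes tested did not overlap. Besides Tiparp these were Hpf1 and Parp6, which are named after their values were seen. Hpf1, the cofactor that directs Parp1 and Parp2 to serine residues, was read 1057, 157 and 106 times across WT replicates and 115, 3 and 26 times across Foxm1 HET replicates (log2 fold change -3.89, standard error 3.23). All its Foxm1 HET libraries were under the WT range on log2 CPM, as for Parp1. Parp6, another mono-ADP-ribosyltransferase, had the opposite sign. It was read 53, 2 and 0 times across WT replicates and 158, 205 and 1336 times across Foxm1 HET replicates, a log2 difference of 4.76 with a standard error of 3.35. With edgeR the adjusted p was 0.982 for Hpf1 and 0.961 for Parp6.

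**Figure D5:**
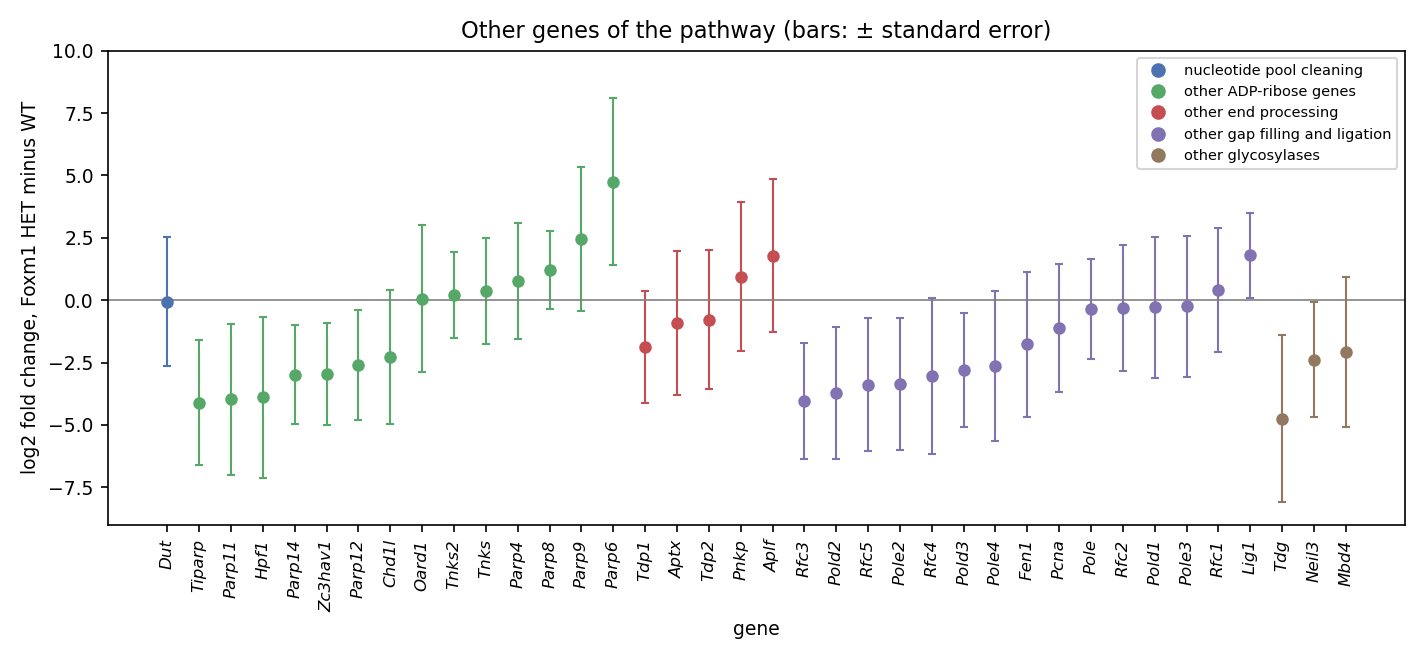
Log2 fold change, Foxm1 HET minus WT (vertical axis), of the 38 other pathway genes tested, grouped by role (color) and sorted within each role, with bars for ± standard error. Of the 15 gap-filling and ligation genes, 13 lie below 0, and no gene of the figure passed the adjusted threshold.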

How the data were processed

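LT-HSC RNA from 3 WT and 3 Foxm1 HET mice was sequenced as single 50-base reads, which the authors aligned to GRCm38 with STAR 2.7.2b (per the labels and methods). Deposited files hold read counts by gene, not normalized, and a normalized table whose values the authors put on a log2 scale. Its libraries differ at the low end. In Foxm1 HET replicate 1, 1441 genes stand at the lowest value, and in Foxm1 HET replicate 2, 4413 do. The counting program and its use of strand are not given in the sources used here. The methods name a Clontech kit and the labels a stranded total RNA kit. Samples were grouped by the genotype label, and columns were matched to samples by name.

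Counts were fitted across all genes with edgeR 4.0.16 in R 4.3.3 (default filter, TMM scaling, quasi-likelihood test, Benjamini-Hochberg adjustment over 8195 genes). Standard errors were obtained from each log2 fold change and its F statistic. The methods speak of 3 pairs of mice, without saying which libraries form a pair or what the pairs share, so the replicate number was used as a block only in an alternative. The p-values measure the spread between 3 libraries a group. An exact permutation test of 3 against 3 cannot go below p = 0.1. Alternatives tried were scaling by RLE, upper quartile or library size, other filters, a replicate block, each library left out, DESeq2 1.42.0, limma 3.58.1 (voom, log2(CPM + 1), log2(CPM + 0.1) and the normalized table). Exon overlap came from the count table, and 50-base stretches and primer sites came from GENCODE transcripts. PCR duplicates cannot be told apart, so read counts understate the error.

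The genes and lists were chosen with earlier results of these data known. All 10 genes are named. Of the wider list, genes with an unadjusted p under 0.05 are named, otherwise the 4 smallest, and 3 genes most like Parp1 are named.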

Additional observations from a re-analysis of the deposited data

How the results depend on the processing

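None of the 10 genes and none of the other pathway genes had an adjusted p under 0.05 in any alternative run, where the share of all genes called ran from 0 to 2.37% (DESeq2). Parp1, Parp3 and Ung kept their direction in every alternative, Parp1 between -4.26 and -2.22 on the log2 scale. With each library left out, Parp2 ran from -0.97 to 8.50, Parg from -0.18 to 1.61, Polb from -1.83 to 11.39 and Lig3 from -1.48 to 0.10. The direction turned without Foxm1 HET replicate 2 for Parp2 (-0.97), Parg (-0.18) and Polb (-1.83). It turned without WT replicate 2 for Parp2 (-0.19) and Lig3 (0.10) and without WT replicate 3 for Parp2 (-0.19). It turned also for Parp2 with library size only (-0.17) and for Parg with limma-voom (-0.034), and the cause was not tested. Deviations of same-numbered libraries from their group means had correlations of 0.02, -0.03 and -0.07. With 3 libraries a group and a wide spread, these values cannot show whether the libraries are pairs. The numbers were not taken as pairs because the methods do not say which libraries form a pair. With the replicate block the log2 fold changes were -3.24 for Parp1, 6.86 for Parp2 and 7.91 for Polb, and the block called 0 of the 10 genes and 0 of the wider list, and 0 of all genes, where 27 were called without it. Parp1 was included for its known difference, so its non-overlap on other scales of the same libraries is a description. It held under RLE, upper-quartile and library-size scaling, which were chosen after the data were seen, and in the normalized table. The gap was 0.08 log2 units with library size alone. By percentile within a library and by the ratio to Parg, Foxm1 HET replicate 3 lay among the WT libraries. Ogg1, Xrcc1 and Apex1 could not be fitted at the default filter. Without a filter the adjusted p in edgeR was 0.538 for Ogg1 and 0.539 for Xrcc1, and the log2 fold change of Apex1 was 1.44.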
